A study of Mus musculus with 48 samples.

Results

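The genes described here encode the proteasome of mouse liver. They were taken as every non-control probe whose gene name was Psma, Psmb, Psmc, Psmd, Psme, Psmf or Psmg followed by a digit, which found 94 of 56605 probes and 49 of 37074 gene names. Each gene was followed by its brightest probe, and 48 of the 49 genes had a probe bright enough to be tested. The exception was Psmb11, a beta subunit of the thymus. Livers came from male C57BL/6J mice, 20 weeks old, in 6 groups of 8, and each liver was hybridised to its own Agilent 1-colour array. Mice were wild-type (WT), lacked the nuclear receptor gene Pparα in hepatocytes only through Cre driven by the albumin promoter (Pparα hep-/-), or lacked it in the whole body (Pparα-/-). Within each genotype they received a low-fat control diet (CTRL) or a high-fat diet with 60% of its energy as fat (HFD), for 12 weeks by the sample labels, and all were housed at thermoneutrality. The study's text gives a shorter time on the diet than the labels. The WT mice were purchased animals and not littermates of the deleted mice, so genotype and origin cannot be told apart in a genotype contrast.

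The proteasome is the protease that degrades ubiquitin-tagged proteins in the cytosol and nucleus. Its 20S core is a barrel of stacked rings of alpha and beta subunits, with the cutting sites inside on Psmb5, Psmb6 and Psmb7. The 19S regulatory particle caps the barrel: a ring of ATPases, the Psmc genes, unfolds the substrate, and the non-ATPase subunits, most of the Psmd genes, receive ubiquitin chains and remove them. Assembly chaperones, other activators (the Psme genes) and an inhibitor (Psmf1) act on the core. Interferon induces Psmb8, Psmb9 and Psmb10, which replace the constitutive catalytic subunits in the immunoproteasome and favour peptides for MHC class I. PPARα is the fatty acid sensor that switches on fat oxidation genes in the fasting liver.

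The 48 tested members comprised 31 constitutive subunits of the 20S core and the 19S particle, 14 accessory genes and the 3 immunoproteasome genes, which are reported apart. By its known role Psmc3ip, a recombination factor named for binding PSMC3, is no subunit of the particle. Psme2 itself was not matched by name. The probe named Psme2b reads a near-identical copy, so its values are uncertain as to which gene they come from. Levels below are log2 signals after quantile normalization with the wash-batch term removed, and fold changes are log2 differences from a fit that gives each array a weight, so they can differ slightly from differences between medians. A change was called at a Benjamini-Hochberg adjusted p of at most 0.05 over all 33321 tested probes (limma). Dimmer probes of a called gene did not always repeat its call: over the 9 contrasts between groups they gave 112 values, of which 87 had the same sign, 51 were called in the same direction and 7 in the opposite one. By the array files (mm9) the probes that recur below lie at chr17:34319174-34319233 for Psmb9, chr17:34337771-34337830 for Psmb8, chr12:101361515-101361574 for Psmc1 and chr11:101184289-101184348 for Psme3, and their place in the exons was not analysed here.

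The arrays had 28234 to 38217 spots well above background, and no spot was saturated. Quantile normalization sets the brightest probes to nearly the same value on every array, and the highest Alb level was 18.93 in every group. For this reason the summed log2 signal of the 6 hepatocyte markers checked, 20.25 to 20.49 in all mice, cannot check hepatocyte content. Alb and Serpina1a weigh most in that sum, and their lack of a call in any contrast has the same limit. Of the others, Apoa1, Cps1 and Hnf4a were called lower in Pparα hep-/- than in WT on CTRL (-0.25, -0.56 and -0.36), in Pparα-/- than in WT on CTRL (-0.51, -0.62 and -0.43) and in Pparα-/- than in WT on HFD (-0.18, -0.46 and -0.29), which are contrasts where the subunit medians were also lower. Cps1, a urea cycle enzyme, fell with HFD in all 3 genotypes, by 0.88, 0.53 and 0.71 in WT, Pparα hep-/- and Pparα-/-. Their part in the subunit values was not tested. The Ppara probe still gave signal in deleted mice: on CTRL its fold change against WT was -0.42 in Pparα hep-/- and -0.65 in Pparα-/-, and whether it lies in the deleted exon was not examined, so it does not check the genotype labels. A whole-liver level cannot tell fewer cells of a type from less RNA per cell. The diet effects and the genotype contrasts share groups: the CTRL groups enter both, and the WT groups enter more than 1 genotype contrast.

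Fold changes of the constitutive subunits with HFD were small. Their median fold change in WT was 0.07, with 25 of the 31 genes above 0, whereas that of all gene names was 0. It was 0.12 among Pparα hep-/- mice (29 above 0) and 0.07 among Pparα-/- mice (23 above 0), beside -0.01 for all gene names in each. With background-subtracted signals scaled to each array's 75th percentile, in place of median signals and quantiles, the subunit medians for WT, Pparα hep-/- and Pparα-/- were 0.06, -0.02 and -0.03, beside 0.01, -0.06 and -0.05 for all gene names, so that the sign turned in both deleted genotypes. Over the 9 contrasts between groups no fold change of a 20S or 19S gene was larger than 0.42 in size. In WT, 5 of the 45 members outside the immunoproteasome were called (4 higher, 1 lower), beside 19.5% of all gene names (9.32% higher, 10.1% lower). Pparα hep-/- mice had 13 called (11 higher, 2 lower), beside 22.5% (10.7% and 11.8%). In Pparα-/- 16 were called (10 higher, 6 lower), beside 26.4% (13.8% and 12.6%). The members' own shares were 11.1%, 28.9% and 35.6%, below the array at large in WT and above it in both deleted genotypes, by differences that were not tested. These positions against the array depend on the settings. With 75th-percentile scaling the Pparα hep-/- share was 20% beside 27.9% of all gene names and the Pparα-/- share 28.9% beside 28.2%, and without array weights the Pparα-/- share was 13.3% beside 13.1%. Without weights the counts were 3 higher and 1 lower in WT, 3 and 0 in Pparα hep-/- and 2 and 4 in Pparα-/-. The 3 in Pparα hep-/- were Psmb5, Psmd8 and Psmd13. With the 75th-percentile scaling WT had 3 higher and 0 lower, Pparα hep-/- 5 and 4, and Pparα-/- 4 and 9, where the balance turned. The Pparα hep-/- count was 5 without CTRL replicate 4 and 8 without CTRL replicate 7.

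**Figure D1:**
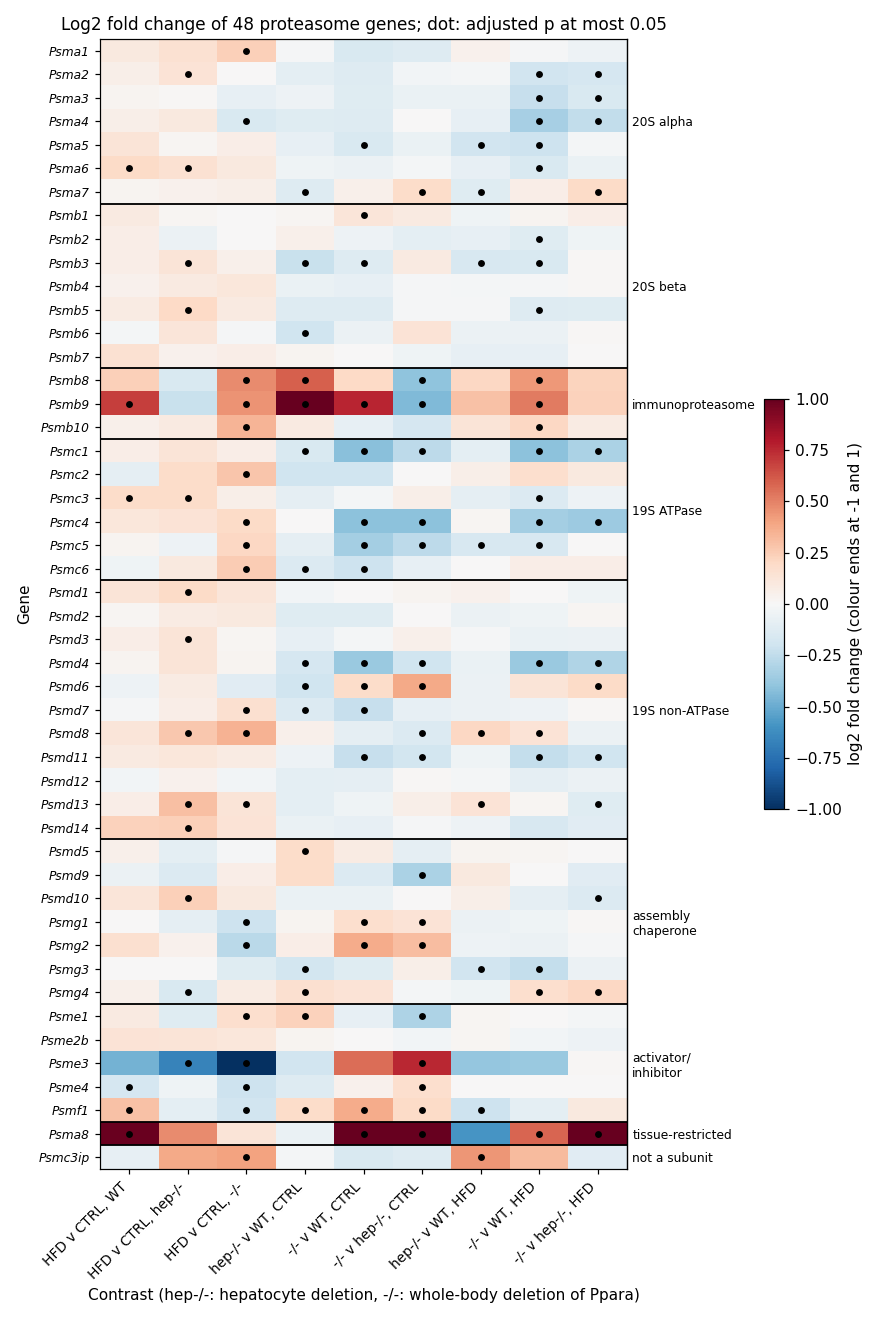
Fold change of each tested member. Rows are the 48 tested genes by role, columns are the contrasts between groups, the colour is the log2 fold change and a dot marks a call. Most constitutive subunits are pale, and the strongest colours are at Psme3, Psma8 and the immunoproteasome genes.

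Among the alpha subunits, which form the outer rings of the barrel, HFD raised Psma6 by 0.19 in WT and by 0.15 in Pparα hep-/- (adjusted p = 0.00766 and 0.0121). The Pparα hep-/- rise was not called without array weights. In Pparα-/- mice Psma1 rose (0.24) and Psma4 was called lower (-0.15). All 7 alpha genes were above 0 in WT and in Pparα hep-/-. Psma8, an alpha subunit best known from testis, had a larger estimate. In WT it ran from 6.65 through a median of 7.48 to 8.25 on CTRL and from 7.56 through 8.34 to 8.95 on HFD. The HFD mice were the higher group, and the groups overlapped. Its fold change was 0.99 (SE 0.27, adjusted p = 0.0071), and its other, dimmer probe gave 0.44 and was not called (adjusted p = 0.0829).

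The constitutive catalytic beta genes had small fold changes with diet. Psmb5, which carries the chymotrypsin-like site, was the only one of them called for diet. It ran in Pparα hep-/- from 12.91 through 13.01 to 13.17 on CTRL and from 13.09 through 13.22 to 13.39 on HFD, a fold change of 0.20 (SE 0.048, adjusted p = 0.00237) with groups that overlapped by little. With 75th-percentile scaling it was 0.10 and not called (adjusted p = 0.131). Its WT and Pparα-/- fold changes were 0.08 and 0.09 (adjusted p = 0.344 and 0.181). Psmb6, the caspase-like subunit, was at 14.82, 15.04 and 15.13 (lowest, median and highest) in WT on CTRL and at 14.73, 14.83 and 15.06 in Pparα hep-/- on CTRL. The Pparα hep-/- mice lay lower with overlap, and the fold change was -0.20 (SE 0.056, adjusted p = 0.00671). Psmb7, the trypsin-like subunit, had medians of 12.47 to 12.59 in the 6 groups and was not called in any contrast between 2 groups. Its largest diet estimate, 0.15 in WT, had a 95% interval from 0.02 to 0.28 (adjusted p = 0.11).

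In the 19S particle, the genes called for HFD lay in 1 direction: 1 ATPase gene in WT, 1 in Pparα hep-/- and 4 of 6 in Pparα-/-, all higher, with a median of 0.20 in Pparα-/-, beside 9.32%, 10.7% and 13.8% of all gene names called higher. The 4 were Psmc2 (0.28), Psmc6 (0.25), Psmc5 (0.21) and Psmc4 (0.19, not called without array weights, adjusted p = 0.157, or with 75th-percentile scaling, adjusted p = 0.153). Dimmer probes of 3 of them were not called there, at 0.13 for Psmc2, -0.09 for Psmc6 and -0.04 for Psmc4. Without array weights 2 members of any class were called higher with HFD in Pparα-/-, and Psmd8 was 1 of them. Thus at most 1 of Psmc2, Psmc5 and Psmc6 stayed called. Of the 11 non-ATPase genes 5 rose in Pparα hep-/- (45.5%) and 3 in Pparα-/- (27.3%), beside the same shares of all gene names. Of the 5 in Pparα hep-/-, only Psmd8 and Psmd13 stayed called without array weights. Psmd8 and Psmd13, non-ATPase subunits of the lid, rose in both deleted genotypes, though the Psmd13 rise in Pparα-/- (0.13, adjusted p = 0.038) was not called without array weights (0.12, adjusted p = 0.156) or with 75th-percentile scaling (0.02, adjusted p = 0.791), and its dimmer probe gave 0.02 there (adjusted p = 0.832). Psmd8 in Pparα-/- ran from 12.38 through 12.47 to 12.52 on CTRL and from 12.63 through 12.76 to 12.98 on HFD. Every HFD mouse was above every CTRL mouse. The fold change was 0.35 (SE 0.052, adjusted p = 5.39e-06). Among Pparα hep-/- mice Psmd8 ran from 12.46 through 12.58 to 12.97 on CTRL and from 12.68 through 12.90 to 12.96 on HFD, where the highest CTRL mouse reached the top of the HFD range, and its fold change was 0.27 (SE 0.05, adjusted p = 0.000122). Psmd13 ran from 13.29 through 13.37 to 13.66 in Pparα hep-/- on CTRL and from 13.55 through 13.68 to 13.75 on HFD with overlap only between the highest CTRL and the lowest HFD mice. Its fold change was 0.30 (SE 0.044, adjusted p = 5.19e-06). With 75th-percentile scaling the Pparα hep-/- values were smaller and still called, 0.16 for Psmd13 and 0.17 for Psmd8.

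**Figure D2:**
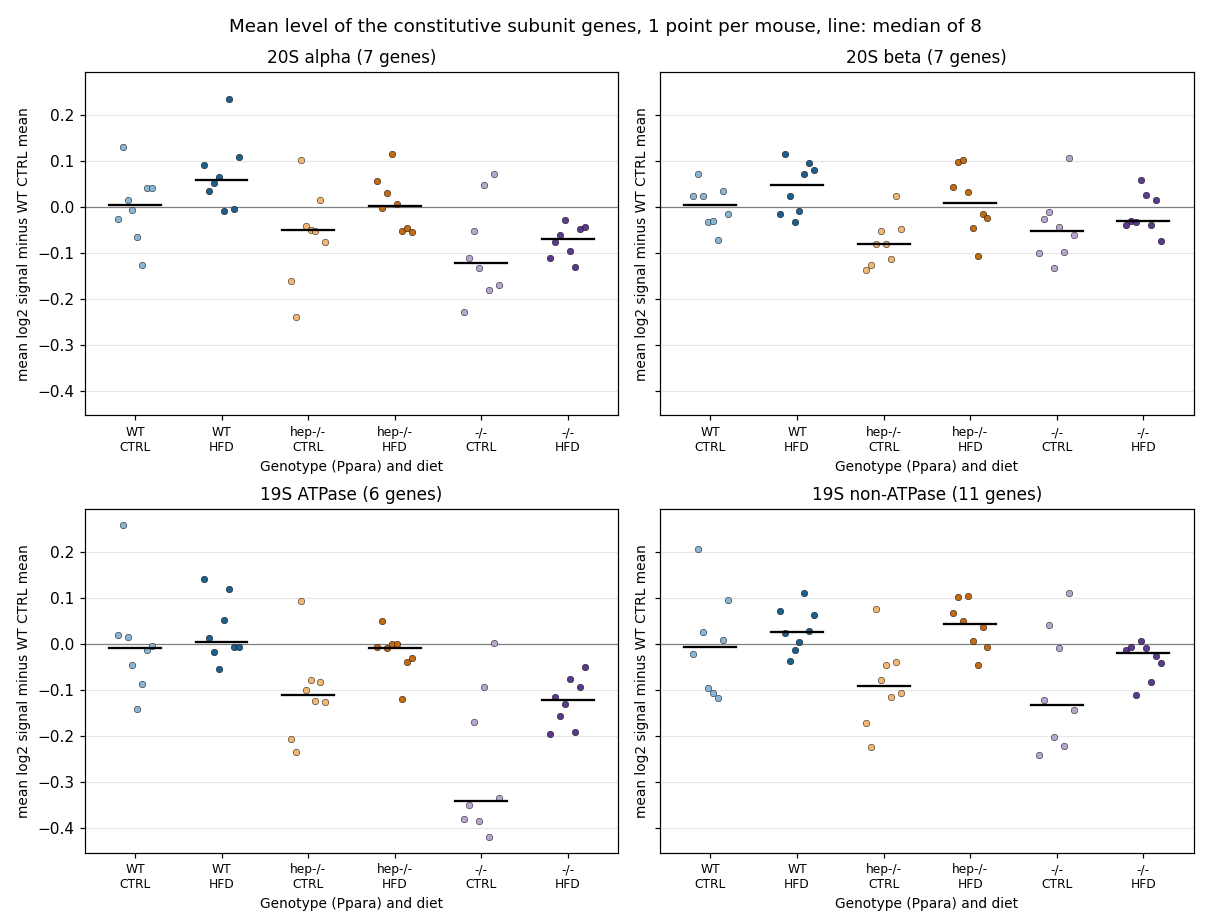
Mean level of the constitutive subunit genes of each subcomplex. The vertical axis is the mean log2 signal over the genes minus the WT CTRL mean, each point is a mouse and each line a median of 8. For the 19S ATPases the Pparα-/- CTRL median is -0.34 and the Pparα-/- HFD median -0.12, the lowest of the 6 groups.

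The assembly chaperones did not move as a block. Psmg2, which with Psmg1 starts the alpha ring, fell by 0.27 with HFD in Pparα-/- (SE 0.058, adjusted p = 0.000676), and its 2 dimmer probes gave -0.10 and -0.09 and were not called (adjusted p = 0.335 and 0.31). There it ran from 11.40 through 11.53 to 11.70 on CTRL and from 11.15 through 11.26 to 11.55 on HFD. The HFD mice were lower, with overlap. Psmg1 fell by 0.21 in the same contrast. Psmg4, a partner of Psmg3, went in Pparα hep-/- from 9.63, 9.75 and 9.83 on CTRL to 9.43, 9.60 and 9.67 on HFD. That drop was called at -0.15 (SE 0.053, adjusted p = 0.0391), with overlap, and was not called without array weights (adjusted p = 0.139). Psmd10, also called gankyrin, rose by 0.24 in Pparα hep-/- and was not called there without array weights.

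The largest diet change of any member was in Psme3, the nuclear activator PA28-gamma. In Pparα-/- its level ran from 12.38 through 13.21 to 14.27 on CTRL and from 11.43 through 11.83 to 12.46 on HFD. The groups touched only at their ends. The fold change was -1.40 (SE 0.21, adjusted p = 4.95e-06). Among Pparα hep-/- mice it ran from 11.47 through 12.50 to 13.02 on CTRL and from 11.30 through 11.78 to 12.62 on HFD, with wide overlap and a fold change of -0.67 (SE 0.2, adjusted p = 0.013). In WT the estimate was -0.47 (SE 0.23) and was not called (adjusted p = 0.164). The call in Pparα hep-/- was lost without array weights (-0.59, adjusted p = 0.184), and the other Psme3 probe, which is dimmer, gave -0.13 in Pparα-/- (adjusted p = 0.157), so the fall rests on 1 of the gene's probes.

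Psme4, the PA200 activator, fell in WT by 0.17 (SE 0.055, adjusted p = 0.0242). There it ran from 13.00 through 13.16 to 13.23 on CTRL and from 12.74 through 13.02 to 13.08 on HFD. It also fell in Pparα-/-, by 0.21 (SE 0.049, adjusted p = 0.00122), from 13.04, 13.22 and 13.33 to 12.87, 12.96 and 13.08. With 75th-percentile scaling the WT fall was 0.15 in size and not called (adjusted p = 0.0896). Of 3 dimmer Psme4 probes 1 was called lower in both genotypes (-0.23 in WT, -0.29 in Pparα-/-), and the others, at 0.13 and 0.09 in WT and at -0.04 and 0.20 in Pparα-/-, were not called. The Pparα-/- groups overlapped at the ends, and in WT 1 CTRL mouse lay within the HFD range, with 4 HFD mice above it. Psme1, a subunit of the interferon-inducible PA28 activator, rose by 0.17 in Pparα-/- (adjusted p = 0.0364). The brightest Psme2b probe had 0.11 there (adjusted p = 0.134), and its other probe was called higher (0.18, adjusted p = 0.00106). Psmc3ip, the dimmest of these probes, ran from 6.17 through 6.58 to 7.03 in Pparα-/- on CTRL and from 6.49 through 6.95 to 7.50 on HFD. The ranges overlapped widely, and 7 of the 8 CTRL arrays had it well above background. Its fold change was 0.40 (SE 0.15, adjusted p = 0.0446), which was not called without array weights (adjusted p = 0.244), nor was that of Psme1 (adjusted p = 0.122), which was 0.07 with 75th-percentile scaling (adjusted p = 0.464).

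Psmf1, which encodes the PI31 inhibitor, had diet effects that differed between genotypes. In WT it ran from 10.21 through 10.30 to 10.78 on CTRL and from 10.57 through 10.66 to 10.81 on HFD, with 3 CTRL mice as high as the HFD mice, and rose by 0.29 (SE 0.066, adjusted p = 0.00159), where its dimmer probe gave 0.19 and was not called (adjusted p = 0.0669). In Pparα-/- it ran from 10.56 through 10.73 to 10.91 on CTRL and from 10.34 through 10.59 to 10.70 on HFD, with overlap, and fell by 0.19 (adjusted p = 0.0159). The difference between these diet effects was -0.47 for Pparα-/- minus WT (adjusted p = 0.000325) and -0.39 for Pparα hep-/- minus WT (adjusted p = 0.00352). The fall in Pparα-/- was -0.18 without array weights and was not called (adjusted p = 0.0773). The Pparα hep-/- minus WT difference was not called without weights either (-0.32, adjusted p = 0.111).

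On CTRL, both deletions were accompanied by lower medians of the constitutive subunits, -0.09 in Pparα hep-/- against WT and -0.12 in Pparα-/- against WT, with 4 and 3 of the 31 genes above 0. For Pparα hep-/- against WT 13 of 45 members were called (4 higher, 9 lower), beside 25.2% of all gene names (12.3% higher, 12.9% lower). For Pparα-/- against WT 15 were called (6 higher, 9 lower), beside 35.3% (16.9% and 18.4%). For Pparα-/- against Pparα hep-/- 16 were called (8 higher, 8 lower), beside 26.6% (13.2% and 13.4%). With 75th-percentile scaling these splits were 3 higher and 5 lower, 3 and 18, and 7 and 9, and the share called for Pparα-/- against WT, 33.3% before, was 46.7% beside 35.6% of all gene names. Without array weights the first split was 1 higher and 5 lower. The first count ranged from 5 to 14 with single mice left out, and 8 different mice brought it to 8 or fewer.

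Among the constitutive subunits the largest falls were in the ATPase ring. All 6 ATPase genes had a negative fold change in Pparα-/- against WT on CTRL, with a median of -0.28, and 4 were called lower, beside 18.4% of all gene names. One of these was Psmc6 (-0.21), whose dimmer probe was called in the opposite direction (0.28, adjusted p = 0.00021). Psmc1 (Rpt2), whose tail helps open the gate of the core, ran from 14.94 through 15.07 to 15.28 in WT and from 14.50 through 14.60 to 14.93 in Pparα-/-. No Pparα-/- mouse reached the lowest WT mouse. The fold change was -0.42 (SE 0.059, adjusted p = 1.91e-07). On HFD the fold change was -0.41 (SE 0.051, adjusted p = 5.36e-09), again without overlap. Psmc4 (Rpt3) ran from 12.13 through 12.44 to 12.71 in WT, from 12.30 through 12.42 to 12.54 in Pparα hep-/- and from 11.85 through 12.02 to 12.29 in Pparα-/- on CTRL. The Pparα-/- mice were all below the Pparα hep-/- mice and overlapped WT. The fold changes were -0.41 against WT (SE 0.067, adjusted p = 2.61e-06) and -0.41 against Pparα hep-/- (SE 0.06, adjusted p = 5.43e-07). Psmd4, the ubiquitin receptor of the particle, was lower by the same order in Pparα-/-, -0.37 against WT on CTRL and -0.37 on HFD, and of its dimmer probes on CTRL 1 was called lower too (-0.34) and 1 was not called (-0.14, adjusted p = 0.296). Within the 2 wash batches the CTRL fold change of Psmc1 was -0.44 and -0.38 and that of Psmc4 -0.56 and -0.31.

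In Pparα hep-/- against WT on CTRL the largest falls were smaller. Psmb3, a structural beta subunit, ran from 14.28 through 14.41 to 14.54 in WT and from 14.12 through 14.17 to 14.32 in Pparα hep-/-, with little overlap. Its fold change was -0.22 (SE 0.048, adjusted p = 0.000697). Psme1 lay higher in Pparα hep-/-, at 14.20, 14.37 and 14.49 against 13.94, 14.15 and 14.43 in WT, with a fold change of 0.23 (SE 0.066, adjusted p = 0.00805). In Pparα-/- on CTRL it was at 13.92, 14.03 and 14.25, which was lower than in Pparα hep-/- by 0.31 (adjusted p = 0.000153). Psmf1 was at 10.42, 10.54 and 10.70 in Pparα hep-/- on CTRL, inside the WT range, with a fold change of 0.18 (SE 0.064, adjusted p = 0.0349). Without array weights neither Psme1 nor Psmf1 was called in Pparα hep-/- against WT (adjusted p = 0.0535 and 0.34).

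Members that were higher in Pparα-/- on CTRL included Psma8, Psmg2 and Psmf1. Psma8 ran from 8.44 through 8.73 to 9.39 in Pparα-/-, above every WT mouse, with a fold change of 1.44 against WT (SE 0.27, adjusted p = 3.97e-05). Its other, dimmer probe gave 0.71 (adjusted p = 0.0018). In Pparα hep-/- on CTRL Psma8 ran from 6.39 through 7.11 to 8.50, so that 1 Pparα hep-/- mouse reached the Pparα-/- range, and Pparα-/- exceeded Pparα hep-/- by 1.52 (SE 0.25, adjusted p = 3.8e-06). Psmg2 ran from 10.88 through 11.23 to 11.51 in WT and from 11.08 through 11.27 to 11.34 in Pparα hep-/-. All Pparα-/- mice were above the Pparα hep-/- mice and some overlapped WT, with fold changes of 0.37 against WT (SE 0.066, adjusted p = 1.57e-05) and 0.31 against Pparα hep-/-. Of its dimmer probes 1 was called higher too (0.41 and 0.47), and 1 gave 0.03 and 0.07 and was not called. Psmf1 was higher by 0.37 against WT (SE 0.067, adjusted p = 1.91e-05). Between the deletions Psme3 was higher in Pparα-/- by 0.75 (SE 0.21, adjusted p = 0.00658), with overlap, whereas its dimmer probe gave -0.09 (adjusted p = 0.405) and was called lower in Pparα-/- than in WT (-0.31, adjusted p = 0.00169). Psmd9, a chaperone of the ATPase ring, ran from 10.19 through 10.75 to 10.89 in Pparα hep-/- and from 10.17 through 10.57 to 10.67 in Pparα-/-, with overlap, and was lower by 0.32 in Pparα-/- (SE 0.073, adjusted p = 0.000744), or by 0.23 and not called without array weights (adjusted p = 0.0522). For Psmd6 the brightest probe gave 0.18 in Pparα-/- against WT, whereas dimmer probes gave -0.27 and -0.29.

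**Figure D3:**
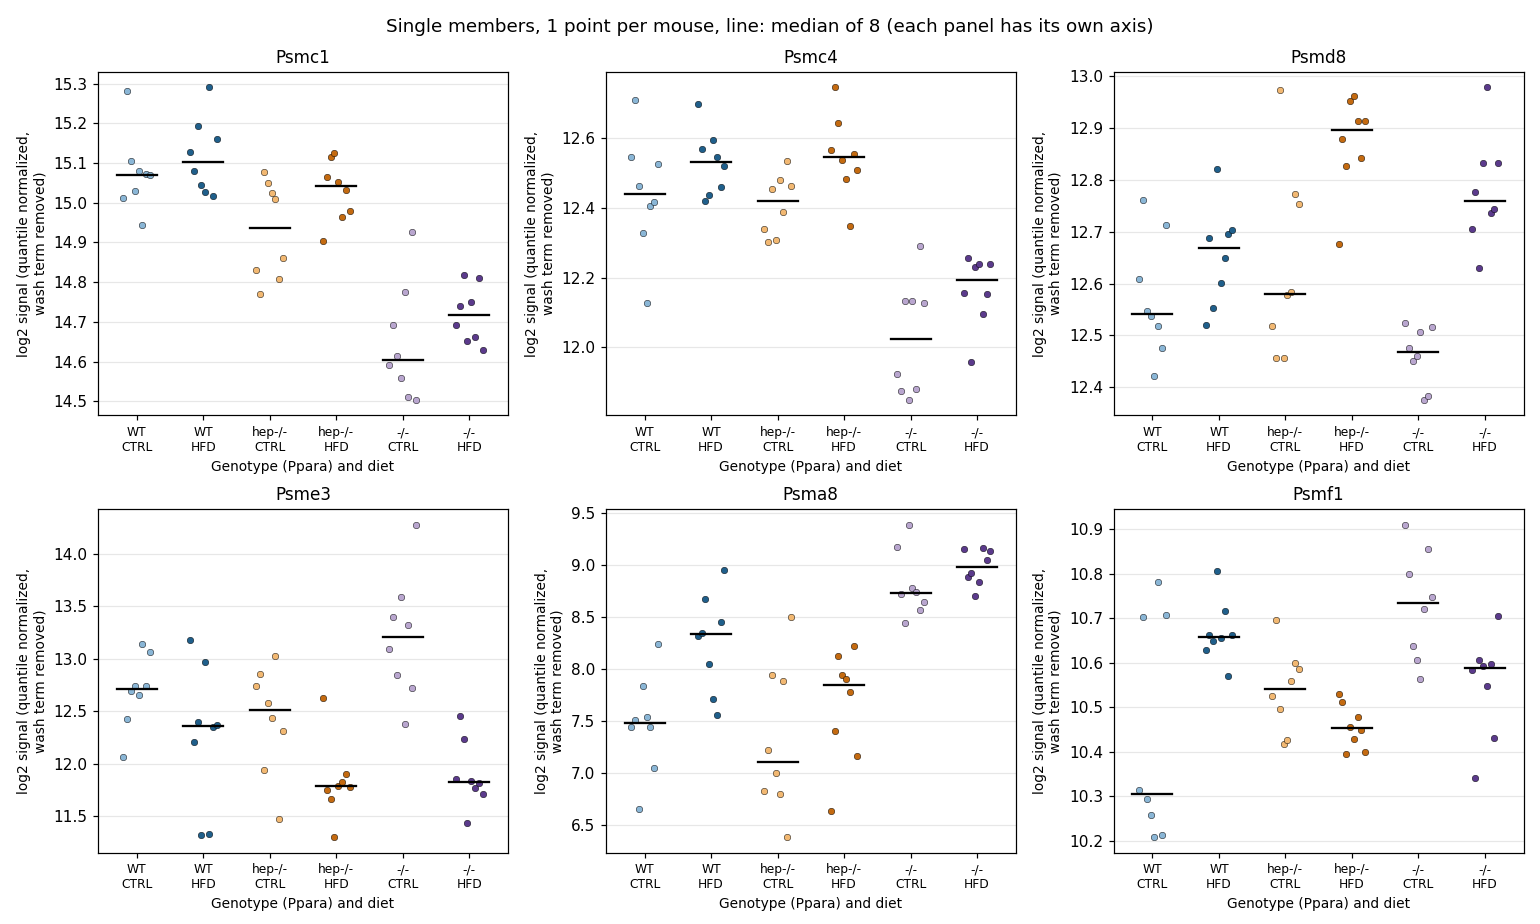
Levels of 6 members in every mouse. The vertical axes are log2 signals, each with its own range, each point is a mouse and each line a median of 8. Psmc1 and Psmc4 are lowest in the Pparα-/- groups, Psma8 is highest there, and Psme3 falls from a median of 13.21 to 11.83 between Pparα-/- mice on CTRL and on HFD.

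On HFD, Pparα hep-/- against WT gave 9 called members (3 higher, 6 lower), beside 28.6% of all gene names (14.6% higher, 14% lower). Pparα-/- against WT gave 18 (3 higher, 15 lower), beside 47.8% (24.1% and 23.7%), and Pparα-/- against Pparα hep-/- gave 13 (4 higher, 9 lower), beside 31.9% (16.9% and 15%). Of the 7 alpha genes 5 were lower in Pparα-/- than in WT, among them Psma4 by 0.33 with no overlap. Psmf1 in Pparα hep-/- was below every WT mouse, at -0.21 (adjusted p = 0.00657). Without array weights the first was 1 higher and 2 lower and the second 1 and 10. The members' shares were 20% and 40% for the first 2 contrasts, below the array at large. With 75th-percentile scaling they were 60% beside 35.4% of all gene names and 75.6% beside 50.9%, thus above it, with splits of 1 higher and 26 lower and of 0 and 34. The third split was then 4 and 10. Under that scaling the subunit medians were -0.18 in Pparα hep-/- and -0.25 in Pparα-/- against WT, in place of -0.06 and -0.09, and Pparα-/- against WT was -0.58 for Psmc1 and -0.47 for Psmc4. All gene names then had a median of -0.08 in both contrasts, in place of -0.02, a shift that also enters these splits. Relative to that median the subunits were at -0.1 and -0.16, in place of -0.04 and -0.07. Psmc1 and Psmc4 in Pparα-/- were at -0.49 and -0.39 relative to it.

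Diet effects were compared between genotypes by the fit's test of the difference. For Pparα hep-/- minus WT 2 of 45 were called (1 higher, 1 lower), or 4.44%, beside 11.2% of all gene names (4.86% higher, 6.3% lower). For Pparα-/- minus WT 7 were called (3 higher, 4 lower), or 15.6%, beside 15.5% (7.75% and 7.76%). For Pparα-/- minus Pparα hep-/- 3 were called (1 higher, 2 lower), or 6.67%, beside 3.93% (2.55% and 1.38%). With 75th-percentile scaling the splits were 0 higher and 5 lower, 0 and 7, and 2 and 1. The medians of all gene names were then -0.07, -0.05 and 0.01. In Pparα-/- minus WT the ATPase genes Psmc2 and Psmc6 and the lid gene Psmd8 had larger diet effects (0.37, 0.29 and 0.23), and Psmg1, Psmg2, Psmf1 and Psme3 had lower ones (-0.21, -0.43, -0.47 and -0.93). Without array weights Psmg2 and Psmf1 alone stayed called among these 7 (-0.37 and -0.41, adjusted p = 0.0157 and 0.0104), and the Psme3 difference was -0.89 (adjusted p = 0.108). With 75th-percentile scaling those of Psmc2, Psmc6 and Psmd8 were not called (0.24, 0.16 and 0.15). By other probes the Psmc6 difference was called in the opposite direction (-0.34, adjusted p = 0.0032), that of Psmf1 was called again (-0.48, adjusted p = 0.00106), and those of Psmc2 (0.39), Psmg1 (-0.10), Psmg2 (-0.04 and -0.01) and Psme3 (-0.14) were not called.

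All 3 immunoproteasome genes rose with HFD in Pparα-/- mice, and Psmb9 rose in WT as well, beside 13.8% and 9.32% of all gene names called higher. Psmb9 (LMP2) in WT ran from 10.97 through 11.72 to 12.16 on CTRL and from 11.89 through 12.22 to 13.19 on HFD. The HFD mice were higher, with overlap and with 1 mouse far above the others. The fold change was 0.69 (SE 0.13, adjusted p = 0.000224). In Pparα-/- it ran from 11.73 through 12.24 to 12.59 on CTRL and from 12.51 through 12.70 to 13.01 on HFD, with little overlap and a fold change of 0.45 (SE 0.12, adjusted p = 0.00434). Among Pparα hep-/- mice it ran from 12.24 through 12.72 to 12.89 on CTRL and from 12.21 through 12.51 to 12.76 on HFD. These groups lay over each other (-0.22, 95% interval from -0.45 to 0.01, adjusted p = 0.162).

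Between genotypes on CTRL, every Pparα hep-/- mouse had more Psmb9 signal than every WT mouse. The fold change was 1.21 (SE 0.13, adjusted p = 2.49e-09), and it was 1.43 and 1.02 within the 2 wash batches. Pparα-/- exceeded WT by 0.76 (SE 0.14, adjusted p = 1.53e-05), with overlap, and lay below Pparα hep-/- by 0.44 (SE 0.12, adjusted p = 0.00506). The diet effect differed by -0.92 between Pparα hep-/- and WT (SE 0.18, adjusted p = 0.000822) and by 0.67 between Pparα-/- and Pparα hep-/- (adjusted p = 0.0144). Without array weights the second of these was 0.59 and was not called (adjusted p = 0.254), nor was the difference between Pparα-/- and Pparα hep-/- on CTRL (adjusted p = 0.0529). The dimmer Psmb9 probe was not called in these contrasts and gave 0.03 in Pparα hep-/- against WT on CTRL (adjusted p = 0.916), so the values rest on the brighter probe.

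Psmb8 (LMP7) in Pparα-/- ran from 11.56 through 11.79 to 12.19 on CTRL and from 11.95 through 12.24 to 12.66 on HFD. The HFD mice were higher, with overlap, and the fold change was 0.47 (SE 0.1, adjusted p = 0.000763). Its diet estimates were 0.24 in WT (95% interval from 0.01 to 0.47) and -0.15 in Pparα hep-/- (-0.34 to 0.05), and neither was called. On CTRL Psmb8 ran from 11.11 through 11.73 to 12.13 in WT and from 12.08 through 12.15 to 12.45 in Pparα hep-/-. Only the ends of these ranges met, and the fold change was 0.60 (SE 0.11, adjusted p = 7.96e-05).

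Psmb10 (MECL-1) had smaller fold changes. In Pparα-/- it ran from 13.79 through 14.12 to 14.43 on CTRL and from 14.12 through 14.41 to 14.86 on HFD, with overlap and a fold change of 0.34 (SE 0.086, adjusted p = 0.00302). In WT and Pparα hep-/- the diet estimates were 0.05 and 0.09, and on CTRL the genotype estimates were 0.09 in Pparα hep-/- and -0.08 in Pparα-/- against WT, none of them called. On HFD all 3 genes were higher in Pparα-/- than in WT, by 0.52, 0.43 and 0.21 for Psmb9, Psmb8 and Psmb10, beside 24.1% of all gene names. The call of Psmb10 was lost without array weights (0.09, adjusted p = 0.544) and with 75th-percentile scaling (0.05, adjusted p = 0.624), and that of Psmb8 without weights (0.26, adjusted p = 0.0832).

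**Figure D4:**
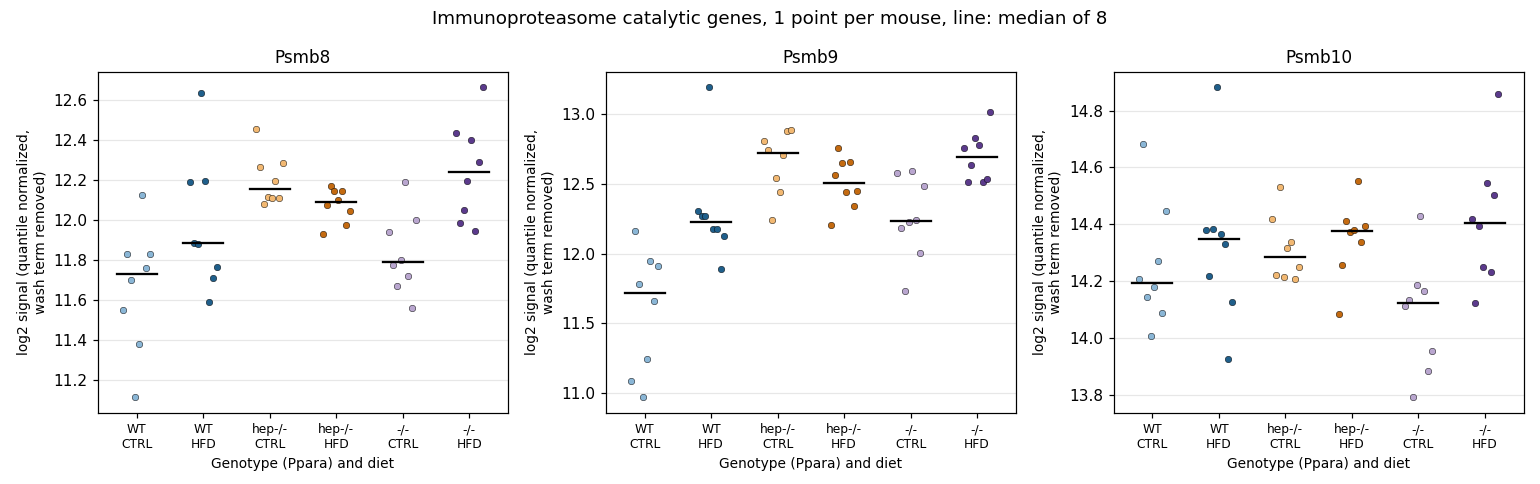
Immunoproteasome genes in every mouse. The vertical axes are log2 signals, each with its own range, each point is a mouse and each line a median of 8. On CTRL all 8 Pparα hep-/- mice lie above all 8 WT mice for Psmb9, and WT HFD holds 1 mouse at 13.19.

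Genes of the interferon response and of antigen presentation were followed beside them, as 9 genes that include Irf1, Nlrc5, Tap1 and Tap2. Of these 6 rose with HFD in Pparα-/-, 1 in WT and 1 in Pparα hep-/-, 5 were higher in Pparα hep-/- than in WT on CTRL and 3 were higher in Pparα-/-. Of all gene names 13.8%, 9.32% and 10.7% rose with HFD in Pparα-/-, WT and Pparα hep-/-, and 12.3% and 16.9% were higher in Pparα hep-/- and Pparα-/- on CTRL. Without array weights the counts were 3, 0 and 0 for diet (7, 1 and 1 at an unadjusted p under 0.05, limma) and 3 and 1 on CTRL. Tap1, a peptide transporter subunit whose gene adjoins Psmb9 in the MHC, was higher by 0.54 in Pparα hep-/- and by 0.53 in Pparα-/- on CTRL, and Tap2 by 0.35 and 0.28. Irf1 and Nlrc5 were not called in these 5 contrasts. On HFD, Pparα-/- exceeded WT by 0.31 for Irf1 and by 0.24 for Nlrc5. There 8 of the 9 genes were higher, beside 24.1% of all gene names. Also on HFD, 4 were higher in Pparα hep-/- than in WT and 6 in Pparα-/- than in Pparα hep-/-. The shares of all gene names were 14.6% and 16.9%, and no immunoproteasome gene was called in either contrast.

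Leukocyte markers moved in some of the same contrasts and not in others. Of 13 tested on a list of 14 (all but Cd79a), 6 were higher and 1 lower with HFD in Pparα-/-, 4 were higher with HFD in Pparα hep-/-, 7 were higher in Pparα-/- than in WT on CTRL, 1 was higher and 1 lower in Pparα hep-/- than in WT on CTRL, and 10 were higher in Pparα-/- than in WT on HFD. Of all gene names 13.8%, 10.7%, 16.9%, 12.3% and 24.1% were higher in these 5 contrasts in turn. With HFD in WT, where Psmb9 rose, 0 of the 13 markers were called by limma (0 at an unadjusted p under 0.05), and in Pparα hep-/- against WT on HFD, where no immunoproteasome gene was called, 6 were higher and 2 lower. The shares of all gene names higher and lower were 9.32% and 10.1% for the first of these and 14.6% and 14% for the other. Their summed log2 signal had a median of 14.63 (14.35 to 16.35) in WT on CTRL, 14.94 (14.04 to 16.64) in WT on HFD and 15.21 (14.87 to 17.27) in Pparα hep-/- on CTRL. It was 15.78 (15.28 to 16.19) in Pparα hep-/- on HFD, 15.40 (14.92 to 16.71) in Pparα-/- on CTRL and 16.37 (15.59 to 16.69) in Pparα-/- on HFD. In WT on HFD the highest mouse, at 16.64, was replicate 6, which also had the highest Psmb9 level of that group (13.19). The part of these markers in the immunoproteasome values was not tested.

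The stretch before the start of the genes is shown for 5 members on which these values turn, so that the letters near the start of an immunoproteasome gene can be set beside those of a constitutive gene. Promoters were matched by symbol in RefSeq (GRCm38.p6) for 41 of the 49 members, which gave 43 promoters of 32851 in all. Each line holds the 250 bases before the start, 5′ to 3′ in the direction of the gene, and capitals mark the motif matches found on either strand.
Psmb9 (chr17:34187331-34187580, minus strand): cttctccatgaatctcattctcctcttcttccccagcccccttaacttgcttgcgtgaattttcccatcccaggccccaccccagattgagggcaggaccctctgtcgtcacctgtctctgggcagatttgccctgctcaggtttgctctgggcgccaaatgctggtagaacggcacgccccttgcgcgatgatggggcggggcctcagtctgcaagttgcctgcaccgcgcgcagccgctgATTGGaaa
Psmb8 (chr17:34197945-34198194, plus strand): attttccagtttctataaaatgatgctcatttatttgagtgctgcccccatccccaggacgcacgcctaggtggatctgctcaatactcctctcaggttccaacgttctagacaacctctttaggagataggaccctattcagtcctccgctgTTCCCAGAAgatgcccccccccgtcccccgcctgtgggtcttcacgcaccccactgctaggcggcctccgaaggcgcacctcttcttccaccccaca
Psmb5 (chr14:54617996-54618245, minus strand): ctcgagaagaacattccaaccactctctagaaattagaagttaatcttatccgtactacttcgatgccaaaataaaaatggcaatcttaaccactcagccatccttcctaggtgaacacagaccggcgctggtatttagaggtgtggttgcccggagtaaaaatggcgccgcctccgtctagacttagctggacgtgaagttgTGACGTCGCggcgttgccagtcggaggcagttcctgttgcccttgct
Psmc1 (chr12:100109952-100110201, plus strand): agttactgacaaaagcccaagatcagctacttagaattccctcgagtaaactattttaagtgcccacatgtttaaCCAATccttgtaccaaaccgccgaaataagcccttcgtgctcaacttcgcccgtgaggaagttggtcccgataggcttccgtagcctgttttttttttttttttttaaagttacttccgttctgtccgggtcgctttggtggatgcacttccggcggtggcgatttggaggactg
Psmc4 (chr7:28050093-28050342, minus strand): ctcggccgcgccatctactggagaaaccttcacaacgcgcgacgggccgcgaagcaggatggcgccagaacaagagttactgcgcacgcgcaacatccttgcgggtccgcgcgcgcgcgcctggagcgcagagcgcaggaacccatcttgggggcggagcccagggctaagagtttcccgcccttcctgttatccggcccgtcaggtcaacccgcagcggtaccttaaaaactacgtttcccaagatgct

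In these lines Psmb9 held a CCAAT box read on the opposite strand at -8. Psmb8 held the gamma-activated pattern TTCNNNGAA at -97, Psmb5 the antioxidant response pattern TGACNNNGC at -47 and Psmc1 a CCAAT box at -175, and Psmc4 held none of the 5 patterns searched. Over windows from 250 bases before to 50 after the start, TGACNNNGC was in 14% of member promoters and 12.4% of all promoters, CCAAT in 34.9% and 37.4%, and TTCNNNGAA in 6.98% and 8.3%. The interferon-stimulated response pattern was in 11.6% of member promoters (Psmb3, Psmd4, Psmd9, Psme1 and Psmg4) and 3.44% of all. It was in 0 of the 3 immunoproteasome promoters. The direct repeat of a consensus PPAR element was in 0 of 43 and in 0.0396% of all promoters. A match describes letters and does not show that a factor binds.

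Partners of the proteasome that do not carry a Psm name were followed as a list of 32, of which 31 were tested. With HFD 5 rose and 4 fell in WT, 6 rose in Pparα hep-/-, and 6 rose and 5 fell in Pparα-/-. These were 29%, 19.4% and 35.5% of the list, beside 19.5%, 22.5% and 26.4% of all gene names called. Without array weights 1 was called in Pparα hep-/- and 7 in Pparα-/-. Nfe2l1, the membrane-bound factor that drives proteasome genes when proteasome capacity is short, rose with HFD in all 3 genotypes, by 0.27, 0.26 and 0.32. In Pparα hep-/- its ranges overlapped, with means before weighting of 11.52 on CTRL and 11.69 on HFD. On CTRL it ran from 11.87 through 12.04 to 12.20 in WT, from 11.30 through 11.50 to 11.80 in Pparα hep-/- and from 11.21 through 11.30 to 11.60 in Pparα-/-. All deleted mice were below all WT mice, with fold changes of -0.56 (SE 0.08, adjusted p = 1.34e-06) and -0.70 (SE 0.084, adjusted p = 4.46e-09).

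Nfe2l2, the antioxidant response factor, was not called in these contrasts. Ddi2, the protease that releases the Nfe2l1 protein, was higher by 0.35 in Pparα-/- than in WT on CTRL and fell by 0.29 with HFD in Pparα-/-. Pomp, which matures the beta ring, rose by 0.17 with HFD in WT. Adrm1, a ubiquitin receptor of the 19S particle, was lower by 0.20 in Pparα-/- on CTRL and rose by 0.18 with HFD there. The largest diet changes on the list were those of Zfand2a, a stress-induced proteasome partner, in WT and Pparα hep-/- (0.35 and 0.47), of the ubiquitin gene Ubb in Pparα-/- (0.44) and of the shuttle Ubqln1, which fell by 0.35 in WT.

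Mice that were high in 1 constitutive subunit tended to be high in others. After group and wash batch were removed, Pearson's r over the 48 arrays had a median of 0.42 across the 465 pairs of the 31 genes (-0.38 to 0.86), against 0.01 across pairs of all gene names. The alpha genes had a median of 0.60, the ATPase genes 0.55, the non-ATPase genes 0.41 and the beta genes 0.29, and 20S with 19S pairs had 0.40. The 3 immunoproteasome genes had 0.69 among themselves and -0.02 with the constitutive subunits. These values describe arrays that share slides, a wash batch and a normalization, and genes are not independent replicates.

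**Figure D5:**
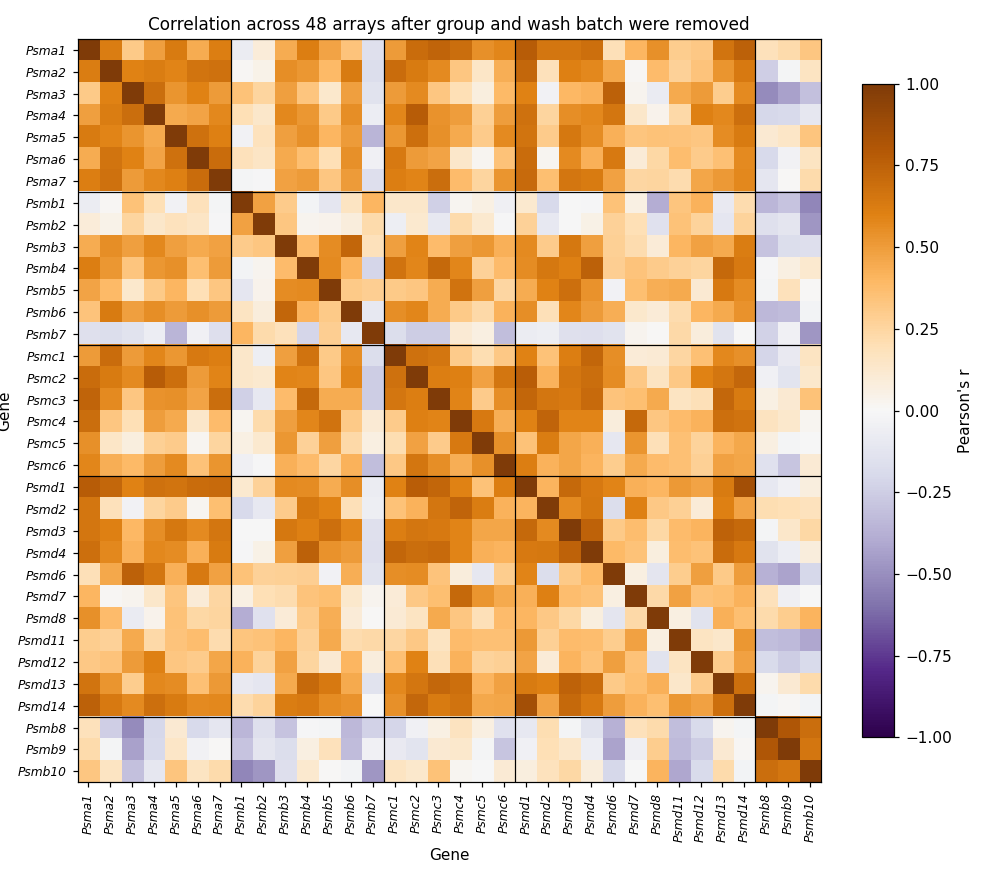
Correlation of members across the 48 arrays. Both axes list the 31 constitutive subunits and the 3 immunoproteasome genes, and the colour is Pearson's r after group and wash batch were removed. Most constitutive pairs are positive, Psmb1, Psmb2 and Psmb7 are paler, and the immunoproteasome genes form a block of their own.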

How the data were processed

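Total liver RNA was hybridised to Agilent 1-colour arrays, 1 mouse per array. The deposited scanner files hold spot intensities that the authors made with Feature Extraction 10.10.1.1: median pixel signals without background subtraction, used here, and processed signals with it, used for the 75th-percentile scaling (percentile over all non-control probes of an array). The authors also deposited log2 values made from median signals, filtered, batch corrected and quantile normalized, which served as an alternative. Here outlier spots were left out, log2 median signals of repeated spots averaged and quantile normalized, and a probe was kept where any group had it well above background in 4 or more mice of 8. The fit (R 4.3.3, limma 3.58.1) held the 6 groups and wash batch, with array weights (0.189 to 2.53) and Benjamini-Hochberg adjustment over all tested probes. It was tested on simulated data. Arrays give no read depth, and the number of arrays limits the precision.

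Members described with full values were, in each diet effect and each CTRL genotype contrast, the 2 with the largest called change in each direction, plus the catalytic and Psme genes. Of the lists, the text names fixed regulators and the largest called partner per direction. Of the list of interferon and antigen presentation genes, 1 is not reported here. The members and lists were chosen with earlier results of these data known. Groups come from the labels, and nothing more is known of cages or litters. Alternatives were other scalings, backgrounds, filters, thresholds, batch terms and left-out arrays.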

Additional observations from a re-analysis of the deposited data

Results flagged for a closer look

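In 7 of 126 groups of 8 mice examined among members with full values, 1 mouse stood apart from the rest, where chance gives about 1 in 20. The gap to the nearest mouse was 0.547 of the whole range for Psme3 in Pparα hep-/- on HFD (replicate 3), 0.551 for Psmc3ip in WT on HFD (replicate 6), 0.540 for Psmd9 in WT on HFD (replicate 6), 0.691 for Psmd9 in Pparα hep-/- on CTRL (replicate 1), 0.686 for Psmb5 in WT on CTRL (replicate 6), 0.683 for Psmb9 in WT on HFD (replicate 6) and 0.688 for Psme2b in Pparα hep-/- on CTRL (replicate 1). WT on HFD replicate 6, WT on CTRL replicate 6 and Pparα hep-/- on CTRL replicate 1 were among the 5 arrays given a weight under 0.5.

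The log2 diet effect differed between genotypes, by the fit's test of the difference, for several members. Pparα-/- minus WT was 0.37 for Psmc2, 0.29 for Psmc6, 0.23 for Psmd8, -0.21 for Psmg1, -0.43 for Psmg2, -0.93 for Psme3 and -0.47 for Psmf1. Pparα hep-/- minus WT was 0.23 for Psmd13, -0.39 for Psmf1 and -0.92 for Psmb9. Pparα-/- minus Pparα hep-/- was -0.25 for Psma4, -0.31 for Psmg2, 0.29 for Psme1, 0.62 for Psmb8 and 0.67 for Psmb9. Without array weights 3 of these 15 differences stayed called, Psmg2 and Psmf1 for Pparα-/- minus WT and Psmb9 for Pparα hep-/- minus WT (-0.86, adjusted p = 0.036). The others had adjusted p from 0.0554 for Psmc6 to 0.289 for Psme1. With 75th-percentile scaling those of Psma4 (-0.21), Psmc2 (0.24), Psmc6 (0.16), Psmd8 (0.15) and Psmd13 (0.07) were not called. By another probe the Psmc6 difference was -0.34, called in the opposite direction (adjusted p = 0.0032), that of Psmd13 was 0.03 and those of Psmb9 were 0.08 (Pparα hep-/- minus WT) and -0.09 (Pparα-/- minus Pparα hep-/-), not called.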

How the results depend on the processing

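Among 200 pairs of a fully described member and a contrast, 80 were called. Of these 79 stayed called with normexp background, 77 with the authors' log2 values, 69 with slide as a block, 68 without the wash term, 56 without the filter on dim probes, 49 without array weights, 64 with background-subtracted signals scaled to the 75th percentile (2 reversed), 37 within the first wash batch alone (1 reversed) and 33 within the second, each with fewer mice. With the 75th percentile, diet in Pparα hep-/- turned to -0.01 for Psmb3, Pparα hep-/- against WT on HFD to -0.02 for Psmd13 and -0.14 for Psme2b, and Pparα-/- against WT on HFD to -0.17 for Psmd13 and -0.17 for Psme1. Under that scaling the median of all gene names was -0.06 for the diet contrast and -0.08 for both genotype contrasts. Relative to it Psmb3 was at 0.05 and Psmd13 in Pparα hep-/- at 0.06. These 2 reversed calls thus kept their sign against the array. Psme2b was at -0.06, and Psmd13 and Psme1 in Pparα-/- were at -0.08. Psmb10 in Pparα-/- against WT on HFD was -0.05 within the first wash batch. In the order WT, Pparα hep-/- and Pparα-/-, members called for diet numbered 3, 9 and 13 with the 75th percentile and 3, 5 and 10 at an adjusted p of at most 0.01. For diet in Pparα hep-/- they numbered 3 without weights, 6 without the filter and 8 without the wash term, for diet in Pparα-/- 6 without weights, and with any probe of a gene 9 for diet in WT and 14 for Pparα hep-/- against WT on HFD. Pparα hep-/- against WT on CTRL gave 6 without weights, 8 with the 75th percentile, 5 without the filter, 6 without the wash term, 8 with slide as a block and 3 at 0.01. Pparα hep-/- against WT on HFD gave 3, 5, 5 and 5 without weights, filter or wash term and at 0.01, and 27 with the 75th percentile. Pparα-/- against WT on HFD gave 11 without weights and 34 with the 75th percentile. For Pparα hep-/- minus WT limma called 0 without weights (4 at an unadjusted p under 0.05), 5 with the 75th percentile, and 1 each without the filter, without the wash term, with slide as a block and at 0.01. Pparα-/- minus WT gave 2 without weights, 3 without the filter and 3 at 0.01. Pparα-/- minus Pparα hep-/- gave 0 without weights (6 at an unadjusted p under 0.05), 0 without the filter (11), 0 at 0.01 (13), and 1 without the wash term or with slide as a block. Without weights the partner list had 1 call for diet in Pparα hep-/-, 7 for diet in Pparα-/-, 2, 9 and 7 for Pparα hep-/- against WT, Pparα-/- against WT and Pparα-/- against Pparα hep-/- on HFD, 0 for Pparα hep-/- minus WT (4 at an unadjusted p under 0.05) and 1 for Pparα-/- minus WT. With weights the 3 genotype contrasts on HFD had 6, 15 and 14 partner calls. These were 19.4%, 48.4% and 45.2% of the list, beside 28.6%, 47.8% and 31.9% of all gene names. On CTRL the same contrasts had 6, 14 and 13. Those were 19.4%, 45.2% and 41.9%, beside 25.2%, 35.3% and 26.6%. Each of the 2 differences had 3 with weights, or 9.68%, beside 11.2% and 15.5%. Without weights, a setting added for this list after seeing the data, the 9 interferon and antigen presentation genes had 0, 0 and 3 for diet (1, 1 and 7 at an unadjusted p under 0.05), 3, 1 and 2 on CTRL, 0, 4 and 1 on HFD (2, 7 and 4) and 0 for each difference of diet effects (1, 2 and 4). Leaving out the 5 arrays of weight under 0.5, also added after seeing the data, kept 76 of the 80 calls and gave 2 interferon genes for diet in Pparα hep-/-. The causes of these shifts were not tested.

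With each replicate left out in turn, member counts ran from 4 to 6 for diet in WT, 5 to 18 in Pparα hep-/- and 12 to 17 in Pparα-/-. They ran from 5 to 14, 12 to 21 and 13 to 18 for the 3 genotype contrasts on CTRL and from 7 to 10, 15 to 19 and 11 to 14 on HFD. Differences of diet effects ran from 1 to 2, 3 to 8 and 1 to 4. For diet in Pparα hep-/- the count was 5 without Pparα hep-/- CTRL replicate 4 and 8 without replicate 7. For Pparα hep-/- against WT on CTRL it was 6, 7, 7, 8 and 5 without WT CTRL replicate 1, 2, 3, 4 and 5, and 5, 7 and 6 without Pparα hep-/- CTRL replicate 4, 7 and 8. For Pparα hep-/- minus WT it was 1 without Pparα hep-/- CTRL replicate 4 or HFD replicate 6. For Pparα-/- minus WT it was 3 without WT CTRL replicate 3 or Pparα-/- HFD replicate 8, and 4 without WT CTRL replicate 2, WT HFD replicate 4 or 8, Pparα-/- CTRL replicate 4 or 7, or Pparα-/- HFD replicate 7. For Pparα-/- minus Pparα hep-/- it was 1 without Pparα hep-/- CTRL replicate 4, 7 or 8, Pparα hep-/- HFD replicate 3 or 6, Pparα-/- CTRL replicate 4 or 7, or Pparα-/- HFD replicate 7 or 8.

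Same-numbered mice of different groups did not deviate together (mean r 0.014, against -0.001 for different numbers), so the numbers do not pair the samples. With the replicate number as a block, Pparα hep-/- against WT on CTRL gave 8 called members in place of 13, and the other counts were 5, 16 and 15 for diet, 13 and 16 on CTRL, 8, 18 and 14 on HFD and 2, 6 and 4 for the differences of diet effects.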
